A study of Mus musculus with 29 samples.

Results

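The genes of 10 enzymes on the path from glucose to lactate in skeletal muscle were followed: Gpi1, Pfkm, Aldoa, Tpi1, Gapdh, Pgk1, Pgam2, Eno3, Pkm and Ldha. They were picked by name, as the rows of the count table whose Ensembl IDs carry these symbols, and make up 10 of 48023 rows. All 10 had enough reads to be tested in every comparison. RNA was sequenced from tibialis anterior (TA) muscle of 29 male mice aged 2–3 months, labelled as on a C57BL/6J background. In one line exon 1 of the p110α gene (Pik3ca) was flanked by loxP sites and removed by a Cre recombinase under the human alpha-skeletal actin (HSA) promoter, which acts in muscle fibers (M-p110αKO). In the other line exon 2 of the p110β gene (Pik3cb) was removed in the same way (M-p110βKO). Each knockout group was set against mice of its own line labelled wild type, called controls here and described in the study as floxed mice. Mice were randomly fed or fasted for 24 h. The p110α line gave 4 fed controls, 4 fed M-p110αKO, 4 fasted controls and 3 fasted M-p110αKO, and the p110β line gave 3 controls and 4 M-p110βKO in each state. Cells other than muscle fibers keep the floxed gene in this model, and the study describes the background of the p110β line as less purely C57BL/6, so line and genetic background cannot be told apart.

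Glycolysis splits glucose into pyruvate and yields ATP without oxygen, and fast-twitch fibers, which dominate the TA muscle, hold its enzymes in very large amounts. Insulin, acting through PI3K, promotes glucose entry and use in muscle, whereas fasting shifts muscle toward fatty acids. In pathway order, Gpi1 encodes the isomerase that turns glucose phosphate into fructose phosphate, and Pfkm encodes muscle phosphofructokinase, the main controlled step. Aldoa encodes the aldolase that cleaves the sugar, and Tpi1 interconverts the resulting triose phosphates. Gapdh oxidizes the triose and makes NADH, Pgk1 makes the first ATP, Pgam2 is the muscle phosphoglycerate mutase, and Eno3 is the muscle enolase. Pkm encodes pyruvate kinase, and Ldha turns pyruvate into lactate, which restores NAD+.

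By GENCODE M21 on GRCm38, the genes lie on 6 chromosomes. Chromosome 7 holds 3 of them, Gpi1 at chr7:34201330-34230336, Ldha at chr7:46841475-46855627 and Aldoa at chr7:126795234-126800751. Tpi1 (chr6:124810586-124814296) and Gapdh (chr6:125161715-125166467) lie on chromosome 6, and Pgam2 (chr11:5801640-5803733) and Eno3 (chr11:70657202-70662513) on chromosome 11. Pkm lies at chr9:59656368-59679375, Pfkm at chr15:98092589-98132451 and Pgk1 at chrX:106187100-106203699. The counts sum reads over all exons of a gene, untranslated regions included.

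RefSeq (GRCm38.p6) gave a promoter for each of the 10 genes, and the 250 bases before the start were searched on both strands for 9 short motifs. The promoters printed are those of Pgam2 and Gapdh, which passed as lower in 3 of the 4 fasting comparisons described below, and those of Gpi1 and Pgk1, which passed in none of them. Tpi1, which passed in all 4, and Pfkm, which also passed in none, are not printed. The window of Gapdh lies in an intron of longer GENCODE transcripts of that gene, which start upstream of the RefSeq start. The windows of Pfkm, Aldoa and Ldha also lie within the GENCODE spans of their genes, and those of Tpi1 and Pkm do so in part. Capitals mark motif matches, and each sequence reads 5′ to 3′ on the strand of its gene.
Pgam2 (minus strand, chr11:5803797-5804046): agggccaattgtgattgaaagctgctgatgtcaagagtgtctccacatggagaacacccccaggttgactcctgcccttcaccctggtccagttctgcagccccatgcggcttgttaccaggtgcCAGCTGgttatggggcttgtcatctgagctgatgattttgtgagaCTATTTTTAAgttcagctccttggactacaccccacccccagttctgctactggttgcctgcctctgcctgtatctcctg
Gapdh (minus strand, chr6:125165774-125166023): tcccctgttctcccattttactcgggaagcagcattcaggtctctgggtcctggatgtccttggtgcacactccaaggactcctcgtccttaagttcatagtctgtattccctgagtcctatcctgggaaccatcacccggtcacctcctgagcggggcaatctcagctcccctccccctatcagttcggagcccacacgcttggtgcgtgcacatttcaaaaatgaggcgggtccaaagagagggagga
Gpi1 (minus strand, chr7:34230337-34230586): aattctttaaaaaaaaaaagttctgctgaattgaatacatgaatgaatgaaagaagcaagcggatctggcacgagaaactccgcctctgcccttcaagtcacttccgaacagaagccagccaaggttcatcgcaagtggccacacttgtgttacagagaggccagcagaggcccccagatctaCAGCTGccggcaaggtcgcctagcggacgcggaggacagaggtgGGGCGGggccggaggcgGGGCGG
Pgk1 (plus strand, chrX:106186850-106187099): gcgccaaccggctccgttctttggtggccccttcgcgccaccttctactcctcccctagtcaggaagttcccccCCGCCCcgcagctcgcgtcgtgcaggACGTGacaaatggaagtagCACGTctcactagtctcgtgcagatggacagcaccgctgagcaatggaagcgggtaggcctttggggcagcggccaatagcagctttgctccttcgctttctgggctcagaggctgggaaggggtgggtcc

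The capitals in Pgam2 are the E-box CAGCTG, known to bind myogenic factors, 125 bases before the start and a MEF2 site 80 bases before it. CAGCTG is also found in the promoters of Gpi1 and Pkm and in 13% of all 32851 promoters of this length, and a MEF2 site in 2.92% of them. The 2 matches to ACGTG, the form of the HIF-1 core that was searched, stand 150 and 131 bases before the start of Pgk1. This form is in 16.6% of all promoters, and Aldoa and Pfkm hold it once each. The form GCGTG, present in the printed window of Gapdh, was not searched. The GC box GGGCGG, known to bind SP1, was matched in Gpi1, Aldoa, Tpi1, Pgk1 and Pkm and in 32.7% of all promoters, and CATTCC, the site of TEAD factors, in Aldoa and Eno3 and in 12.6%. None of the 10 held the E-box CACGTG, which contains ACGTG and is in 6.02% of all promoters. The only form of the TATA box searched, TATAAA, in 12.4% of all promoters, was not matched in any of the 10 either. The same was true of the forkhead site GTAAACA, in 3.17% of all promoters. The site TCAAGGTCA of estrogen-related receptors, in 0.387% of all, was also unmatched. These are letter matches in these windows and were not linked to binding.

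Assigned reads ranged from 5351935 to 11653239 per library, with a median of 7828636. Mitochondrially encoded genes took 6.99% to 12.3% of them. Each of the 10 genes had between 1319 and 182142 reads in a library. One fed control of the p110α line (replicate 4) stood apart by its reads in the 10 genes. In the p110β line 2 fasted controls (replicates 23 and 24) did so by their adipocyte markers. By chi-square per degree of freedom over genes, replicates 23 and 24 were closer to each other (6.55) than to replicate 25 (16.6 and 19.5). Results of the 10 genes that differed without replicate 4, or without replicates 23 and 24, are given below. Calls of genes in the other lists were not checked without these libraries. Replicate 4 had the lowest share of reads in the 10 genes of its group, 3.75% against 4.78–5.35%. In fasted p110β controls the summed level of 7 adipocyte markers was 172–424 CPM (reads scaled to a common library size), against 119–137 in fed ones. All 4 adipocyte markers with enough reads were higher in those fasted controls than in fed ones, beside 14.5% of all genes. Adipoq, which defines adipocytes, averaged 14.7 CPM there and 0.233 CPM in fed controls of that line. Skeletal muscle markers were high in every library, at 88796 to 129335 CPM summed over 6 genes. Pik3ca did not pass between M-p110αKO and controls, with log2 fold changes of 0.10 ± 0.127 (SE, adjusted p = 0.805) fed and −0.09 ± 0.136 (adjusted p = 0.748) fasted. Pik3cb did not pass in M-p110βKO either, at −0.0044 ± 0.134 (adjusted p = 0.995) fed and 0.04 ± 0.136 (adjusted p = 0.927) fasted. Reads summed over a whole gene do not check the removal of 1 exon, so the knockout was not checked here.

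The 10 genes took 4.78 ± 0.737% (SD) of assigned reads in fed controls of the p110α line and 5.15 ± 0.136% in fed M-p110αKO. After fasting they took 3.76 ± 0.218% in controls and 4.71 ± 0.563% in M-p110αKO. In controls of the p110β line the share was 5.47 ± 0.106% fed and 4.88 ± 0.468% fasted, and in M-p110βKO it was 6.39 ± 0.448% fed and 4.56 ± 0.58% fasted. The mean share was thus lower after fasting in each of the 4 pairs of groups, and the shares of single fed and fasted mice overlapped in controls and M-p110αKO of the p110α line but not in either genotype of the p110β line.

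**Figure D1:**
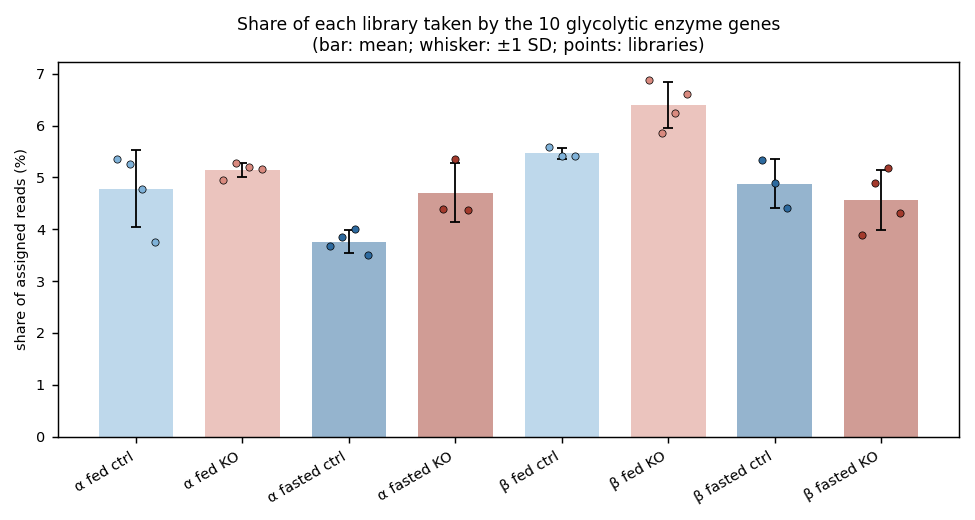
Share of assigned reads (%) taken by the 10 glycolytic enzyme genes in each group. Bars are group means, whiskers ±1 SD and points single libraries (α, p110α line; β, p110β line; ctrl, control). The fed β KO bar is the highest, at 6.39% ± 0.448, and the fasted α control bar the lowest, at 3.76% ± 0.218.

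Levels were compared between genes only per kilobase of exon. Over the 29 libraries Eno3 was the highest at 7857 CPM per kilobase, ahead of Aldoa at 5467 and Pfkm at 2164. A middle group followed, with Pgam2 at 1032, Tpi1 at 775, Gapdh at 759, Pkm at 732 and Ldha at 647. Pgk1 (119) and Gpi1 (97.8) were the lowest. With the length of the principal transcript in place of all exons, Aldoa (10533) stood above Eno3 (8737), and Gpi1 (219) above Pgk1 (147). Of the 50-base stretches of the principal transcript, 82.5% in Gapdh, 68% in Pgk1, 34.4% in Pkm and 25.3% in Gpi1 occur in transcripts of other genes, so these levels are uncertain, and how the authors counted such reads is not given in the sources used here. Pfkm, Pgam2 and Eno3 shared no such stretch. Exons of Gpi1, Pfkm, Aldoa, Tpi1 and Gapdh also overlap a gene on the opposite strand, and no strand setting is stated.

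Pgam2 varied most. It ranged from 239 to 1866 CPM between libraries, a 7.79-fold span, while the other 9 genes spanned 1.68-fold (Gpi1) to 2.59-fold (Eno3). Its coefficient of variation over all libraries was 47.7%, and within groups 20.4%. Among the 10 genes, 8 were lowest in fasted controls of the p110α line, and 8 were highest in fed M-p110βKO. The exceptions at the low end were Gapdh and Pgk1, lowest in fasted p110β controls, and at the high end Pfkm, highest in fasted p110β controls, and Pgk1, highest in fed M-p110αKO.

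**Figure D2:**
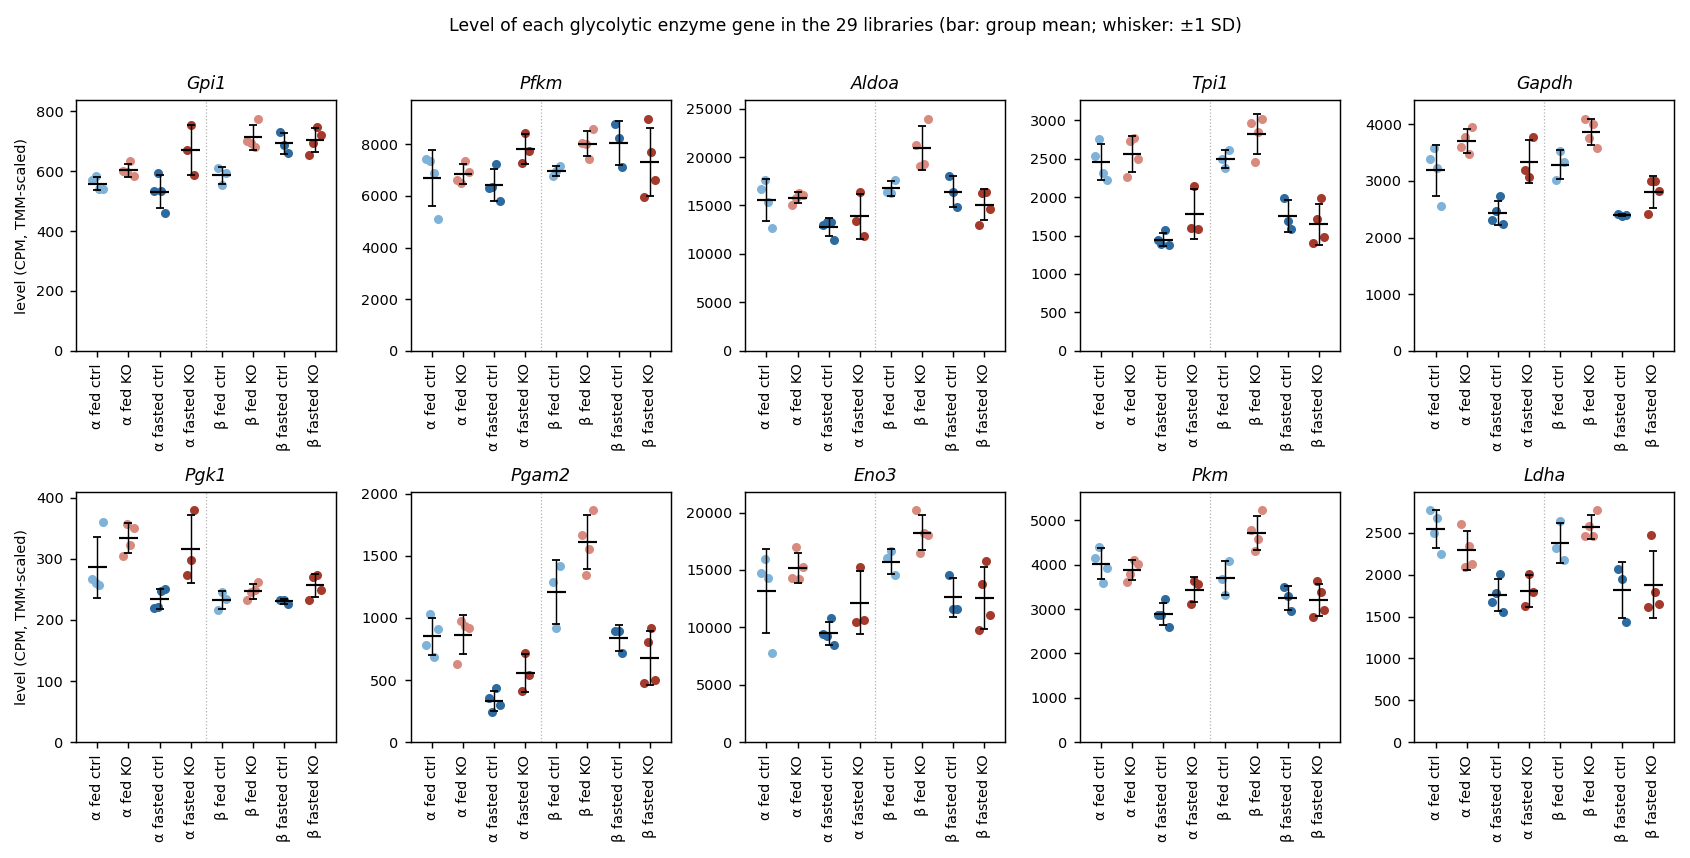
Level of each gene in CPM, scaled with TMM factors over all libraries, with 1 point per library, the group mean as a bar and ±1 SD as a whisker, on linear axes from 0. α and β are the p110α and p110β lines, and ctrl is control. In Tpi1 no fasted library reaches the lowest fed value of 2223 CPM, whereas the fed and fasted libraries of Gpi1 and Pfkm share most of their range.

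Whether fasting altered the genes was asked first in controls of the p110α line. Fasting lowered 5 of the 10 genes, Pgam2, Tpi1, Ldha, Pkm and Gapdh, and the fitted changes of all 10 were below 0. Over all 12433 genes tested, 14.7% passed in the same direction. The median change of the 10 genes was −0.44 on the log2 scale, beside 0.0043 for all genes. In 5 genes, Tpi1, Pgk1, Pgam2, Pkm and Ldha, every fasted library lay below every fed one, which held for 14.6% of all genes (16.1% in the other direction), and 15.4% of all genes passed as higher.

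Pgam2 was 780.0, 1028, 681 and 914 CPM in the 4 fed controls and 354, 239, 432 and 295 CPM in the 4 fasted ones. Every fasted library lay below every fed one, and the log2 fold change was −1.37 ± 0.196 (SE, adjusted p = 6.18e-05), a fall to 0.386 of the fed level. Tpi1 was 2538, 2752, 2319 and 2223 CPM fed and 1448, 1396, 1575 and 1375 CPM fasted. These groups did not overlap either, with a log2 fold change of −0.77 ± 0.115 (SE, adjusted p = 9.44e-05). Ldha was 2768, 2495, 2671 and 2248 CPM fed and 1674, 1776, 2008 and 1559 CPM fasted, again without overlap, and fell by 0.54 ± 0.11 on the log2 scale (SE, adjusted p = 0.00133). Pkm was 4156, 4407, 3592 and 3934 CPM fed and 2873, 2859, 3230.1 and 2608 CPM fasted. All 4 fasted values were the lower ones, at a log2 fold change of −0.48 ± 0.101 (SE, adjusted p = 0.00164). Gapdh was 3390.4, 3576, 3233 and 2551 CPM fed and 2305, 2463, 2729 and 2239.9 CPM fasted, and here replicate 4 of the fed group lay within the fasted range. Its log2 fold change was −0.40 ± 0.115 (SE, adjusted p = 0.015), and the call was lost without fed replicate 2 (adjusted p = 0.0577).

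The other 5 genes did not pass. Eno3 was 14704, 15965, 14287 and 7787 CPM fed and 9384, 9219, 10854 and 8456 CPM fasted, at −0.48 ± 0.18 (SE, adjusted p = 0.0509). Aldoa was 16729, 17672, 15316 and 12687 CPM fed and 12930.4, 13342, 13291 and 11389 CPM fasted, at −0.30 ± 0.121 (SE, adjusted p = 0.0709). In both genes the low fed library was replicate 4, and without it Eno3 was at −0.66 (adjusted p = 0.0019) and Aldoa at −0.38 (adjusted p = 0.0248), which made 7 genes lower. Pgk1 was −0.29 ± 0.124 (SE, adjusted p = 0.0805), and replicate 4 was its highest fed library at 361 CPM beside 257 to 267 CPM in the other fed controls. Without replicate 4 Pgk1 was at −0.16 (adjusted p = 0.304) and Pfkm at −0.17 (adjusted p = 0.241). Gpi1 stood at −0.08 ± 0.0957 (SE, adjusted p = 0.574) and Pfkm at −0.07 ± 0.12 (SE, adjusted p = 0.716). The first enzymes of the pathway thus had 95% intervals of −0.27 to 0.11 and −0.30 to 0.17 on the log2 scale.

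In M-p110αKO fasting lowered 2 of the 10 genes, Tpi1 and Pgam2, where 9.91% of all genes passed in that direction. As higher passed 11.6%. Groups lay apart with fasted lower in 2 genes, Tpi1 and Ldha, and in 13.5% of all genes (14.6% the other way). The median change of the 10 was −0.18. Tpi1 was 2264, 2733, 2774 and 2495 CPM in the 4 fed and 1601, 2150.4 and 1579.7 CPM in the 3 fasted M-p110αKO, without overlap, at −0.53 ± 0.125 (SE, adjusted p = 0.0062). Pgam2 was 632, 978, 937 and 916 CPM fed and 415, 716 and 539 CPM fasted. Here the groups overlapped, since 1 fasted library (replicate 14) exceeded the lowest fed one, and the log2 fold change was −0.64 ± 0.211 (SE, adjusted p = 0.0395). Of the others, Ldha was nearest to the threshold at −0.34 ± 0.12 (SE, adjusted p = 0.0514), and DESeq2 and limma-voom called it. Gapdh was 3601, 3775, 3467 and 3950.4 CPM fed and 3187, 3061 and 3774 CPM fasted, a change of −0.14 ± 0.124 (SE, adjusted p = 0.441). The Pgam2 call was lost without any 1 of replicates 6, 7, 8, 13 and 15, and with GC and length offsets (−0.55, adjusted p = 0.0506).

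In controls of the p110β line fasting lowered 2 genes, Tpi1 and Gapdh, where 12.4% of all 12249 genes tested passed in that direction and 14.5% in the other. Groups lay apart with fasted lower in 4 genes (20.4% of all) and with fasted higher in 2, Gpi1 and Pfkm (21% of all). Such counts use CPM scaled within a line, and on the scale of all 29 libraries printed here Pfkm overlapped, with fasted replicate 25 at 7127 CPM and fed replicate 18 at 7154 CPM. Tpi1 was 2493, 2382 and 2618 CPM in the 3 fed and 1990.4, 1691 and 1579.6 CPM in the 3 fasted controls, at −0.50 ± 0.139 (SE, adjusted p = 0.0124). Gapdh was 3011, 3523 and 3333 CPM fed and 2412, 2387 and 2396 CPM fasted, at −0.44 ± 0.116 (SE, adjusted p = 0.00842). Neither gene overlapped between the groups. Pgam2 was 1289, 917 and 1417 CPM fed and 897, 896 and 721 CPM fasted, and its change of −0.52 ± 0.218 (SE, adjusted p = 0.0879) did not pass. Gpi1 stood at 0.25 ± 0.105 (SE, adjusted p = 0.0847) and Pfkm at 0.22 ± 0.139 (SE, adjusted p = 0.251), and neither was past the threshold. Without replicates 23 and 24, whose adipocyte markers were high, 1 fasted control remained, and the spread was then taken from the other groups. Tpi1 was then at −0.65, Gapdh at −0.44 and Ldha at −0.71. The remaining control, replicate 25, had the lowest Ldha of the fasted group, at 1439 CPM beside 2066 and 1946 CPM. With all fasted controls Ldha was at −0.38 ± 0.161 (SE, adjusted p = 0.0909) and did not pass.

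In M-p110βKO fasting lowered 7 of the 10 genes, where 18.9% of all genes passed in that direction and 19% in the other. Groups lay apart with fasted lower in 6 genes, against 16.8% of all genes (17.4% the other way). The 7 genes that passed were Pgam2, Tpi1, Pkm, Eno3, Aldoa, Gapdh and Ldha, and the median of all 10 was −0.47, beside −0.02 for all genes. Pgam2 was 1668, 1342, 1556 and 1866 CPM in the 4 fed and 477, 808, 917 and 502 CPM in the 4 fasted M-p110βKO, at −1.25 ± 0.192 (SE, adjusted p = 6.22e-05). Tpi1 was 2973, 2453, 2848 and 3021 CPM fed and 1406, 1712, 1987 and 1479.6 CPM fasted, at −0.78 ± 0.121 (SE, adjusted p = 7.13e-05). No fasted value reached the fed range in either gene. Pkm was 4782, 4318, 4572 and 5230.2 CPM fed and 2832, 3624, 3377 and 2992 CPM fasted, at −0.56 ± 0.111 (SE, adjusted p = 0.000664). Eno3 was 20203, 16498, 18224 and 18086 CPM fed and 9744, 13808, 15754 and 11051 CPM fasted, at −0.54 ± 0.138 (SE, adjusted p = 0.00499). Both genes, the enolase and the pyruvate kinase of the last steps, were lower in every fasted mouse. Aldoa was 21273, 19114, 19247 and 23942 CPM fed and 12987, 16262, 16397 and 14629.6 CPM fasted, at −0.47 ± 0.111 (SE, adjusted p = 0.00261). Gapdh was 4097, 3755, 3999.8 and 3589 CPM fed and 2407, 3005, 2992 and 2817 CPM fasted, at −0.46 ± 0.101 (SE, adjusted p = 0.00152). Neither overlapped between the groups. Ldha was 2464, 2585, 2457 and 2768 CPM fed and 1614, 2471, 1791 and 1649 CPM fasted, at −0.45 ± 0.14 (SE, adjusted p = 0.0163), with 1 fasted library (replicate 27) inside the fed range. Gpi1 (−0.02 ± 0.0911), Pfkm (−0.14 ± 0.12) and Pgk1 (0.05 ± 0.0868) did not pass. With offsets for GC content and exon length, the calls of Aldoa (−0.26, adjusted p = 0.0707), Eno3 (−0.31, adjusted p = 0.0777) and Ldha (−0.37, adjusted p = 0.0588) were lost.

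Over the 4 fasting comparisons, Tpi1 passed in all 4, Gapdh and Pgam2 in 3, Pkm and Ldha in 2, Aldoa and Eno3 in 1, and Gpi1, Pfkm and Pgk1 in none. The fitted changes of 7 genes, Aldoa, Tpi1, Gapdh, Pgam2, Eno3, Pkm and Ldha, were below 0 in all 4 comparisons, whether or not they passed. The make-up of the reads of the 10 genes also differed between states. Pfkm gave 13.1% of their reads in fed and 16.6% in fasted libraries, and Gpi1 1.13% and 1.46%, whereas Tpi1 gave 4.77% and 3.71% and Pgam2 2.04% and 1.29%.

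**Figure D3:**
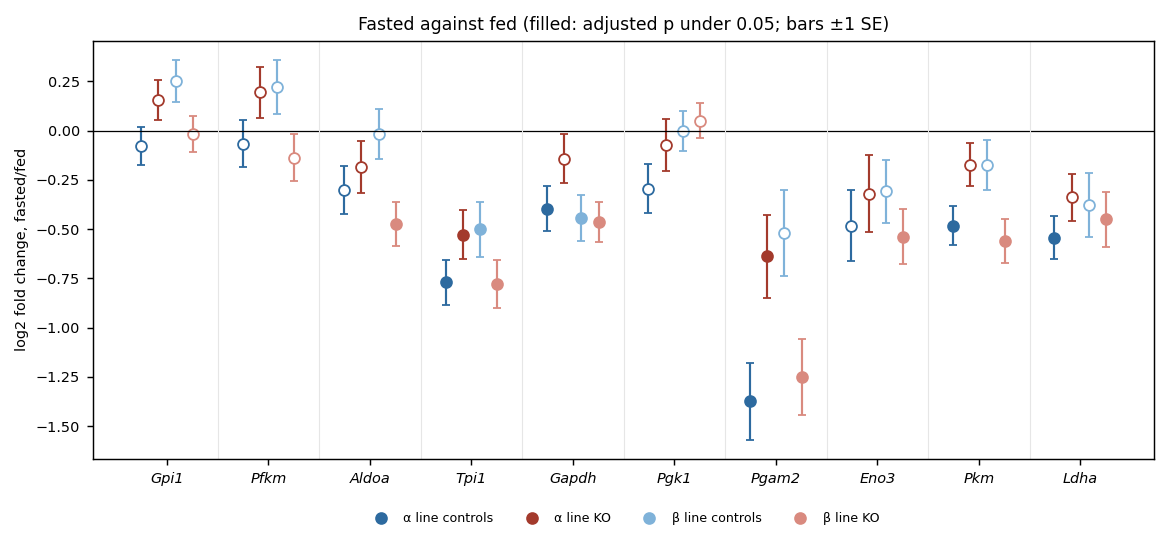
Log2 fold change of each gene in fasted against fed mice, for controls and knockouts of both lines, with ±1 SE. Filled points passed at an adjusted p under 0.05 in edgeR, and open points did not. Tpi1 has 4 filled points between −0.78 and −0.50, Pgam2 the 2 lowest points of all at −1.37 and −1.25, and Gpi1, Pfkm and Pgk1 only open points around 0.

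Loss of p110α was compared with controls in each state. In fed mice none of the 10 genes passed in edgeR or DESeq2. None had an unadjusted p under 0.05 in edgeR, where 1455 of all genes did. Among all 12433 genes tested, 0.193% were higher and 0.418% lower. Groups overlapped in all 10, where 2.71% of all genes lay apart with the knockout higher and 3.88% with it lower. The changes ran from −0.16 ± 0.11 (SE) in Ldha to 0.22 ± 0.124 in Pgk1, and the interval for Pgam2, −0.35 to 0.40, was the widest. Without control replicate 4 none of the 10 passed either, and Pgk1 was at 0.36 (adjusted p = 0.182) and Eno3 at 0.02 (adjusted p = 0.97), beside 0.20 ± 0.18 with it. Pfkm (−0.07, adjusted p = 0.822) and Aldoa (−0.07, adjusted p = 0.867) were then below 0, and above 0 with it (0.03 ± 0.12 and 0.01 ± 0.121). In fasted mice 2 genes, Gapdh and Pgam2, were higher in M-p110αKO, where 3.02% of all genes passed in that direction and 3.51% in the other. In 4 genes every knockout lay above every control, which held for 9.64% of all genes (11.1% the other way). All 10 fitted changes were above 0, with a median of 0.32 beside 0.0033 for all genes. Of the 10, 7 had an unadjusted p under 0.05, as did 2831 of all 12433 genes.

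Gapdh was 2305, 2463, 2729 and 2239.9 CPM in the 4 fasted controls and 3187, 3061 and 3774 CPM in the 3 fasted M-p110αKO. All 3 knockout values were above the controls, at a log2 fold change of 0.46 ± 0.123 (SE, adjusted p = 0.0327), or 1.38-fold. Pgam2 was 354, 239, 432 and 295 CPM in controls and 415, 716 and 539 CPM in M-p110αKO, and the lowest knockout value lay below the highest control. Its log2 fold change was 0.76 ± 0.207 (SE, adjusted p = 0.0355), or 1.69-fold. Gpi1 (0.34 ± 0.103, adjusted p = 0.0538) and Pgk1 (0.44 ± 0.133, adjusted p = 0.0548) were just short of the threshold, and DESeq2 called both. Pgk1 was 219, 221, 247 and 250.1 CPM in fasted controls and 273, 298 and 379 CPM in fasted M-p110αKO, without overlap. Pfkm and Tpi1 did not overlap between these groups either and did not pass, at 0.29 ± 0.129 (SE, adjusted p = 0.185) and 0.30 ± 0.123 (SE, adjusted p = 0.149). Ldha was the least changed, at 0.05 ± 0.119 (SE, adjusted p = 0.852). Both calls were lost with GC and length offsets, where Gapdh was at 0.38 (adjusted p = 0.111) and Pgam2 at 0.48 (adjusted p = 0.185). Both were also lost without control replicate 9, 10 or 12 or knockout replicate 14 or 15, and Gapdh without knockout replicate 13.

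Gapdh was the reference gene for the RT-qPCR measurements of the study, by its methods. Against the summed reads of a library its mean level was 3188 ± 447 CPM (SD) in fed controls, 3698 ± 210.0 CPM in fed M-p110αKO, 2434 ± 218 CPM in fasted controls and 3341 ± 381 CPM in fasted M-p110αKO. In the p110β line it was 3289 ± 259, 3860.2 ± 231, 2398 ± 12.6 and 2805 ± 279 CPM in the same order, and it passed as lower on fasting in 3 of 4 comparisons and as higher in fasted M-p110αKO. Its effect on the RT-qPCR values was not tested.

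Loss of p110β gave no call in either state by edgeR, DESeq2 or limma-voom. In fed mice no gene of the 12249 tested passed (0% in either direction). An unadjusted p under 0.05 was found in 4 of the 10 and in 1060 of all genes. All 10 changes were above 0, with a median of 0.23, and in 6 genes every M-p110βKO library lay above every control, which held for 5.34% of all genes (4.48% the other way). One of them, Eno3, overlapped on the scale of all 29 libraries, with control replicate 17 at 16625 CPM and knockout replicate 20 at 16498 CPM. Pkm was 3684, 3329 and 4096 CPM in the 3 controls and 4782, 4318, 4572 and 5230.2 CPM in the 4 M-p110βKO, at 0.36 ± 0.12 (SE, adjusted p = 0.36). Aldoa was 16405, 16264 and 17585 CPM in controls and 21273, 19114, 19247 and 23942 CPM in M-p110βKO, at 0.33 ± 0.12 (SE, adjusted p = 0.427). Gpi1 was 611, 555 and 594 CPM in controls and 701, 695, 679 and 775 CPM in M-p110βKO, at 0.29 ± 0.0989 (SE, adjusted p = 0.379). In these genes the knockout values were all the higher ones, but the differences did not survive adjustment over all genes. In fasted mice none of the 10 had an unadjusted p under 0.05, beside 1619 of all genes. The groups overlapped in all 10, and the changes ran from −0.31 ± 0.203 in Pgam2 to 0.22 ± 0.109 in Gapdh. Over all genes 0.294% were higher and 0.596% lower, and 4.81% lay apart with the knockout higher and 5.35% with it lower. Without replicates 23 and 24, Pfkm (0.03, adjusted p = 0.989), Aldoa (0.02, adjusted p = 0.995), Tpi1 (0.06, adjusted p = 0.977), Eno3 (0.11, adjusted p = 0.937) and Pkm (0.11, adjusted p = 0.928) changed from below to above 0 and did not pass either.

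**Figure D4:**
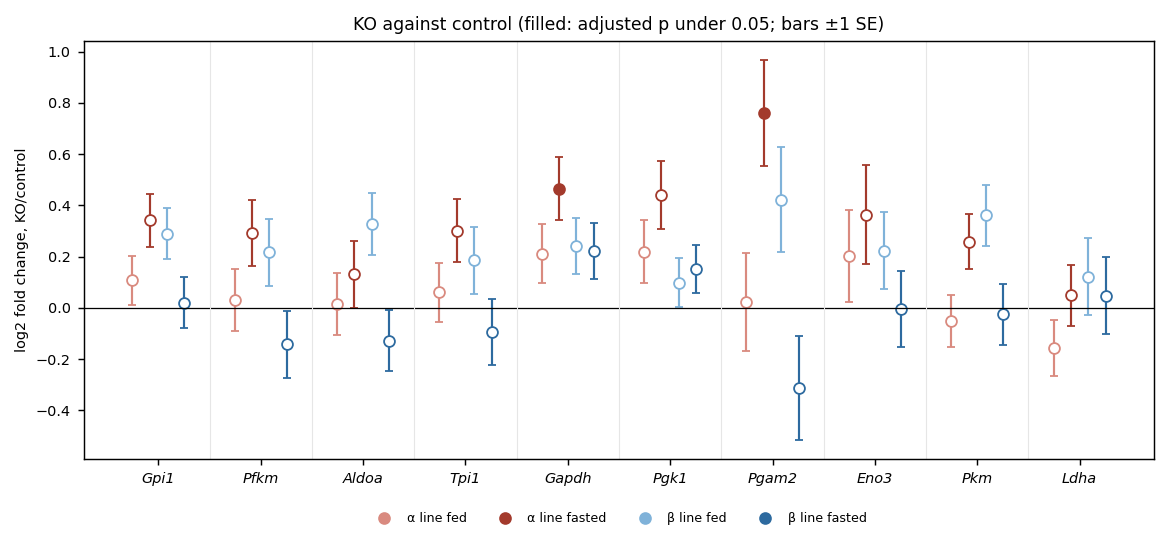
Log2 fold change of each gene in knockouts against controls of the same line and state, with ±1 SE. Filled points passed at an adjusted p under 0.05 in edgeR. The only filled points are Gapdh (0.46) and Pgam2 (0.76) in the fasted p110α line.

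Whether the fasting change differed by genotype was tested as an interaction. None of the 10 genes passed in the p110α line, where 0.209% of all genes passed upward and 0.273% downward, or in the p110β line, where 0.0408% and 0.0653% did. In DESeq2 none passed either. Pgam2 had the lowest unadjusted p in the p110α line, at 0.74 ± 0.283 (edgeR, SE, unadjusted p = 0.0178, adjusted p = 0.22). It was the only one of the 10 under 0.05 there, beside 1859 of all 12433 genes. In the p110β line 3 of the 10 were under 0.05 before adjustment, beside 1563 of all 12249 genes. They were Aldoa (−0.46 ± 0.168, adjusted p = 0.296), Pgam2 (−0.73 ± 0.289, adjusted p = 0.308) and Pkm (−0.39 ± 0.169, adjusted p = 0.354). The sign of the Pgam2 interaction was opposite in the lines, upward in M-p110αKO and downward in M-p110βKO, and neither passed.

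The lines were set against each other in a fit of all 29 libraries with 12760 genes tested. Fed controls differed in none of the 10 genes by edgeR, where 9.33% of all genes were higher and 10.9% lower in the p110β line. An unadjusted p under 0.05 was found in 4305 of the 12760 genes and in 2 of the 10. These were Pgk1, at −0.30 ± 0.114 (SE, adjusted p = 0.0596), and Pgam2, at 0.50 ± 0.221 (SE, adjusted p = 0.104), and DESeq2 called Pgk1. In Pgk1 every p110β value was below every p110α one, which held for 15.2% of all genes (13.8% the other way). Without replicate 4, the fed p110α control with the highest Pgk1 level, its line difference was −0.17 (adjusted p = 0.263). The fasting change of controls differed between lines in none of the 10 by edgeR or DESeq2 (0.933% of all genes higher and 0.627% lower). Under 0.05 unadjusted in edgeR were 2211 of all genes and 2 of the 10, Pgam2 at 0.84 ± 0.315 (SE, adjusted p = 0.153) and Gpi1 at 0.31 ± 0.133 (SE, adjusted p = 0.216). The effect of the knockout in fasted mice differed in 1 gene, Pgam2, at −1.06 ± 0.313 (SE, adjusted p = 0.0457), where 2.19% of all genes passed downward and 2.69% upward. Its knockout effect was 0.76 ± 0.207 in the p110α line and −0.31 ± 0.203 in the p110β line, each from the fit of its own line. The call was lost without replicates 23 and 24, at −0.86 (adjusted p = 0.384), with GC and length offsets, at −0.74 (adjusted p = 0.205), and without any 1 of replicates 9, 10, 12, 14, 15, 23, 24, 26 and 29.

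The order of the groups by Pgam2 level was fed M-p110βKO (1608 ± 219 CPM, SD), fed p110β controls (1207 ± 259.9), fed M-p110αKO (866 ± 158), fed p110α controls (851 ± 152), fasted p110β controls (838 ± 102), fasted M-p110βKO (676 ± 220.1), fasted M-p110αKO (557 ± 152) and fasted p110α controls (330.2 ± 82.5). Every neighbouring pair in this order overlapped in range. For Tpi1 the 4 fed groups (2458 ± 236 to 2824 ± 258 CPM) all lay above the 4 fasted ones (1449 ± 89.8 to 1777 ± 323 CPM). No fasted library of any line reached the lowest fed value of Tpi1, 2223 CPM, the highest being 2150 CPM.

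Other genes of the pathway came from lists chosen by name. Of 19 other glycolytic isozymes, 9 had enough reads. In fasted p110α controls 3 of them were lower and 1 higher, beside 14.7% and 15.4% of all genes. Hk2, the insulin-sensitive hexokinase of muscle, averaged 693 CPM fed and 428 CPM fasted, at −0.70 ± 0.11 (SE, adjusted p = 0.000154). Eno1, the ubiquitous enolase, changed by −0.81 ± 0.128 (SE, adjusted p = 0.000163), and Bpgm by −0.68 ± 0.158 (SE, adjusted p = 0.00361), while Pfkp, the platelet phosphofructokinase, rose by 0.58 ± 0.195 (SE, adjusted p = 0.0323). In fasted M-p110αKO against controls, Hk2 (0.48 ± 0.118, adjusted p = 0.0239) and Eno1 (0.51 ± 0.14, adjusted p = 0.037) were higher, in the same direction as Gapdh and Pgam2. In fasted M-p110βKO against fed ones, Eno1 (−0.71 ± 0.114, adjusted p = 0.0001) and Bpgm (−0.56 ± 0.133, adjusted p = 0.00278) were lower and Ldhb (1.00 ± 0.27, adjusted p = 0.00692), the heart-type lactate dehydrogenase, was higher. In fed controls Pfkp was higher in the p110β than in the p110α line, at 1.19 ± 0.185 (SE, adjusted p = 7.79e-05).

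Of the 9 regulators and bypass enzymes 8 were tested. Fbp2, the muscle fructose bisphosphatase that runs against phosphofructokinase, rose on fasting in all 4 comparisons. It averaged 40.7 CPM in fed and 78.6 CPM in fasted p110α controls, at 0.95 ± 0.144 (SE, adjusted p = 0.000109), and 34.6 and 166 CPM in p110β controls, at 2.27 ± 0.254 (SE, adjusted p = 3.92e-06). In knockouts it changed by 1.14 ± 0.151 (SE, adjusted p = 6.75e-05) in the p110α line and 1.52 ± 0.214 (SE, adjusted p = 2.81e-05) in the p110β line. Pfkfb3, which makes the activator of phosphofructokinase, was higher after fasting in the p110α line, at 1.23 ± 0.428 (SE, adjusted p = 0.0371) in controls and 1.81 ± 0.457 (SE, adjusted p = 0.00934) in knockouts, and lower in M-p110βKO, at −1.40 ± 0.532 (SE, adjusted p = 0.0458). The activity of Pfkm itself was not measured by these reads.

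Among 13 genes of glucose, lactate and pyruvate transport and the NADH shuttle, Gpd1, the cytosolic enzyme of the glycerol phosphate shuttle, was lower on fasting in all 4 comparisons, from −1.05 ± 0.115 (SE, adjusted p = 1.91e-06) in M-p110βKO to −0.75 ± 0.144 (SE, adjusted p = 0.00144) in M-p110αKO. Slc2a4, the insulin-responsive glucose transporter GLUT4, was lower in fasted p110α controls (−0.34 ± 0.0858, adjusted p = 0.006), as was Slc16a3, the lactate exporter MCT4 (−0.67 ± 0.171, adjusted p = 0.00677). Slc2a1 (GLUT1) was higher in fasted M-p110αKO than in fasted controls (0.79 ± 0.185, adjusted p = 0.0194) and than in fed M-p110αKO (0.88 ± 0.186, adjusted p = 0.00291).

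All 14 transcription factors known to act on glycolytic genes were tested, and in fasted p110α controls 7 were higher and 4 lower. Of all genes 15.4% were higher and 14.7% lower there. Foxk1, a forkhead factor that promotes glycolysis, was higher on fasting in all 4 comparisons, at 1.00 ± 0.107 (SE, adjusted p = 3.83e-06) in p110α and 1.00 ± 0.142 (SE, adjusted p = 5.16e-05) in p110β controls. Mlxipl, which encodes the glucose-sensing factor ChREBP, was lower in fasted p110α controls (−0.92 ± 0.104, adjusted p = 5.66e-06) and in M-p110βKO (−0.67 ± 0.135, adjusted p = 0.000761). In fasted mice it was higher in M-p110αKO than in controls (0.69 ± 0.111, adjusted p = 0.00232), and it was the 1 gene of the list whose interaction passed (0.73 ± 0.151, adjusted p = 0.0387). Esrra, an estrogen-related receptor, changed in the same directions, at −0.96 ± 0.111 (SE, adjusted p = 7.55e-06) on fasting of p110α controls and 0.57 ± 0.119 (SE, adjusted p = 0.0104) in fasted M-p110αKO. Between the lines, the knockout effect in fasted mice differed for Mlxipl (−0.94 ± 0.186, adjusted p = 0.00478) and Esrra (−0.84 ± 0.21, adjusted p = 0.0208), as it did for Eno1 (−0.75 ± 0.182, adjusted p = 0.0175) and Pgam2.

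Fast fiber genes, which are high in the same fibers as these enzymes, were 10 in number and all were tested. On fasting 5, 3, 5 and 6 of them were lower in p110α controls, M-p110αKO, p110β controls and M-p110βKO, and 1 was higher, Atp2a1 in p110β controls (0.37 ± 0.107, adjusted p = 0.0155). In the same order 14.7%, 9.91%, 12.4% and 18.9% of all genes were lower, and 14.5% were higher in p110β controls. Pvalb and Mylpf were among the lower fast fiber genes in each. In p110α controls they changed by −0.90 ± 0.178 (SE, adjusted p = 0.00107) and −0.62 ± 0.126 (SE, adjusted p = 0.00139). None of the 10 passed between genotypes in either state. Of 9 slow fiber genes tested, 3 were lower and 0 higher on fasting in p110α controls, beside 14.7% and 15.4% of all genes. In p110β controls 3 of 8 were higher and 1 lower, beside 14.5% and 12.4%. Myh7, the slow myosin, averaged 8.77 CPM in fed and 2.67 CPM in fasted p110α controls. In p110β controls it averaged 1.18 and 12.5 CPM, and fed and fasted values overlapped in both lines. Casq2 (28.0 and 16.7 CPM) and Myl3 (21.1 and 16.1 CPM) went the other way in p110β controls. The 1 fasted p110β control with the highest summed slow fiber level, 333 CPM, was replicate 25. The fasting change of Myh7 differed between lines by 5.13 ± 1.24 (SE, adjusted p = 0.0293). Shares of fiber types and reads per fiber cannot be told apart in whole muscle, and the part of fiber genes in the changes of the 10 enzymes was not tested. In fasted p110β mice 3 of 4 adipocyte markers were lower in M-p110βKO than in controls, beside 0.596% of all genes. In p110α controls 2 of 6 adipocyte markers tested were higher after fasting, and the sum was 154–174 CPM against 90–125 CPM fed. Macrophage markers were higher there in 2 of 3 tested, with a sum of 26.7–51.5 CPM against 9.72–16.2 CPM fed, as were 2 of 6 fibroblast and 2 of 5 endothelial markers. Of all genes 15.4% passed as higher in these controls. Fibroblast markers were lower in fasted M-p110βKO, where 6 of 6 passed beside 18.9% of all genes. Their sum was 152–222 CPM against 370–541 CPM fed. The part of these cell types in the results was not tested.

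The 10 genes moved together to an unequal degree. Over the 29 libraries, the 45 pairs had Pearson correlations of log2 CPM from −0.19 (Aldoa and Pgk1) to 0.91 (Tpi1 and Pkm), with a median of 0.61. The 9 pairs with Pgk1 had a median of 0.07. These values mix differences between groups, mice and library scaling. Among 3720 other genes whose mean log2 CPM was 5 or more, those most like the mean of the 10 were Ptges3l (r = 0.94), Mettl22 (0.92), Ctdnep1 (0.89), Ptpa (0.89) and Dynll2 (0.89). Ptges3l averaged 51.2 and 28.6 CPM in fed and fasted p110α controls and 75.5 CPM in fed M-p110βKO, where most of the 10 genes were also highest.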

How the data were processed

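RNA of tibialis anterior muscle from 29 mice in 8 groups was sequenced after poly(A) selection. Per the labels and the study's methods, the authors aligned reads to GRCm38 with STAR and deposited raw counts per Ensembl gene from featureCounts (Subread). Versions, strand and multimapping settings were not given in the sources used here. Rows without a gene symbol (713 of 48023) held 0.0292% of the counts.

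Counts were tested with edgeR 4.0.16 (R 4.3.3), using TMM factors, genes kept by filterByExpr (minimum count 10, total 15), the quasi-likelihood F test and Benjamini-Hochberg adjustment over all genes tested, with 0.05 as the threshold. Each line was fitted alone with 4 groups, and the lines were compared in 1 fit of all libraries. Intervals are 1.96 SE on each side. Scripts were tested on simulated data. Alternatives included DESeq2 1.42.0, limma-voom 3.58.1, other scalings and filters, GC and length offsets, and leaving out each library. Libraries had 5351935 to 11653239 assigned reads, and no pair within a group agreed within sampling noise, the lowest chi-square per degree of freedom being 3.92 over 39 pairs. P-values measure the spread between these mice. Authors' comparisons were not used.

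The 10 genes and all lists were chosen with earlier results of these data known. Text names the 10 genes, at most 4 genes per other list and comparison by lowest adjusted p, and the 5 genes most like the mean of the 10 by Pearson correlation of log2 CPM among genes with a mean of at least 5. Group means of Adipoq, Hk2, Fbp2, Myh7, Casq2 and Myl3 were chosen after their values were seen.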

Additional observations from a re-analysis of the deposited data

Results flagged for a closer look

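Pgk1, the enzyme that makes the first ATP of glycolysis, was 361 CPM in replicate 4 of the fed p110α controls and 257 to 267 CPM in the other 3, so that its gap to the nearest library was 0.898 of the range of the group. In the same library Gpi1, Pfkm, Aldoa, Tpi1, Gapdh, Eno3 and Ldha were the lowest of the group, and mitochondrially encoded genes took 11.5% of the reads. Of 50 sets of a gene and a group of 4 libraries examined, this was the 1 with a library so far apart, where chance gives about 1 in 20.

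The knockout effect on Pgam2 in fasted mice differed between the lines by −1.06 ± 0.313 on the log2 scale (p110β minus p110α, edgeR, SE, adjusted p = 0.0457). The Pgam2 values of fasted knockouts and controls overlapped in both lines, although 2 of 3 fasted M-p110αKO lay above every fasted control of their line. The line difference stayed past the threshold in 14 of 26 alternatives.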

How the results depend on the processing

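No result changed direction after being called. Under alternatives other than leaving out a library, 220 of 230 changes of a called gene stayed past the threshold and 10 fell short of it, and with 1 library left out 122 of 150 stayed past it. The causes were not tested. No paired analysis was made because the labels give no pairing of mice between groups. The number of the 10 genes that passed in fasted M-p110αKO against controls was 2. It became 4 with upper-quartile factors, library sizes alone, DESeq2 or all 29 libraries in 1 fit. With limma-voom it was 3, with GC and length offsets 0, and with 1 library left out 0 to 2. On fasting, p110α controls had 5. This became 8 with upper-quartile factors or all 29 libraries in 1 fit, 7 with DESeq2, and 4 to 7 with 1 library left out. M-p110αKO had 2, which became 1 with GC and length offsets, 3 with DESeq2 or limma-voom and 1 to 3 with 1 library left out. M-p110βKO had 7, which became 4 with those offsets and 6 to 7 with 1 library left out. For p110β controls it was 2 to 3 throughout. Each interaction, 0 here, became 1 without a filter beyond 1 read, as did the difference in fasting response between control lines. Fed controls of the lines differed in 0 genes, and in 1 with DESeq2 size factors, library sizes alone, no such filter, DESeq2, GC and length offsets, and in 0 to 1 with 1 library left out. Library sizes alone moved the median of all genes in that comparison to 0.10 on the log2 scale, and to −0.10 in the next one. The line difference in knockout effect when fasted, 1, became 0 with GC and length offsets, with the groups compared alone and without replicates 23 and 24, and was 0 to 1 with 1 library left out.

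The share of reads in the 10 genes, computed without the 20 most abundant other genes, was 6.83% in fed p110α controls, 7.20% in fed M-p110αKO, 5.19% in fasted p110α controls, 6.42% in fasted M-p110αKO, 7.91% in fed p110β controls, 9.39% in fed M-p110βKO, 6.70% in fasted p110β controls and 6.48% in fasted M-p110βKO. Without mitochondrially encoded genes it was 5.77% in fed M-p110αKO, 4.16% in fasted p110α controls, 6.14% in fed p110β controls, 7.14% in fed M-p110βKO and 5.16% in fasted M-p110βKO. With no division by length the ratio of the highest to the lowest of the 10 genes within a library averaged 61.3, and Aldoa and Pgk1 were then the ends by mean level, where per kilobase they were Eno3 and Gpi1.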
